A study of Mus musculus with 30 samples.

Results

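The genes of MHC class I presentation were followed across clonal J774A.1 lines, a macrophage-like mouse line, that were left untreated or stimulated with interferon gamma (IFNG). The set holds 10 of the 54146 genes in the table, taken by their symbols. 7 lie on chromosome 17 (H2-K1, H2-D1, H2-T23, H2-M3, Tap1, Tap2 and Tapbp) and 3 lie elsewhere (B2m on chromosome 2, Nlrc5 on chromosome 8 and Erap1 on chromosome 13). In mm10, as the files give it, the chromosome 17 genes run in the order Tapbp (chr17:33915899-33929288), H2-K1 (33996017-34000333), Tap1 (34187553-34197225), Tap2 (34203527-34216321), H2-D1 (35262730-35267499), H2-T23 (36029773-36032855) and H2-M3 (37270220-37274484). H2-K1 and H2-T23 lie on the minus strand. B2m lies at chr2:122147686-122153083, Nlrc5 at chr8:94434356-94527272 and Erap1 at chr13:74639568-74693201, all on the plus strand. RNA was sequenced from 3 WT clones (WT1, WT2 and WT3) and 2 KO clones (KO1 and KO2). Of the 6 libraries of each clone, 3 came from untreated cells and 3 from cells exposed to 100 ng/mL mouse IFNG during 4 h, which makes 30 libraries. KO clones carry a homozygous deletion of B2_Mm2.Dicer1, a SINE copy in an intron of Dicer1, made with Cas9 and guides delivered by electroporation. WT clones were grown from single cells as well but were not electroporated. Each line is therefore 1 clone, and genotype rests on 3 clones against 2.

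Libraries held 15566122 to 37992642 counted fragments. All 10 macrophage markers examined (among them Adgre1, Csf1r and Cd68) reached at least 1 CPM (counts scaled to the effective library size) in every library, with a summed level of 4957 to 7697 CPM. Single markers varied to unlike degrees over the libraries, Csf1r from 967 to 1469 CPM, Cd68 from 476 to 659 CPM and Adgre1 from 9.27 to 294 CPM. Of 18 markers of T cells, B cells, dendritic cells, epithelial cells, fibroblasts and neutrophils, 16 stayed under 1 CPM in every library, and the 18 together came to 3.14 to 8.43 CPM. Dicer1, whose intron carries the deletion, ranged between 96.8 and 130.2 CPM in untreated WT libraries and between 70.5 and 109 CPM in untreated KO libraries. After IFNG the range was 132 to 171 CPM for WT and 71.5 to 105 CPM for KO. In bulk RNA, fewer cells with a transcript and less of it per cell cannot be told apart. The libraries of a group are taken as replicates. Nothing in the labels ties them to separate cultures, so p-values measure the spread between libraries, which may be technical. Where clones were pooled without a term for clone, as in pooled WT, pooled KO and KO against WT, that spread also holds differences between clones. No pair of libraries of 1 group differed by as little as counting noise alone (chi-square per degree of freedom of at least 1.95).

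MHC class I molecules show peptides from inside the cell to CD8 T cells. A heavy chain pairs with B2m, and the peptide is cut from cytosolic proteins, pumped into the endoplasmic reticulum by the Tap1 and Tap2 transporter, trimmed there by the aminopeptidase Erap1 and loaded with the help of tapasin (Tapbp). H2-K1 and H2-D1 encode classical heavy chains, while H2-T23 (Qa-1) and H2-M3 encode nonclassical chains that present narrow sets of peptides. Nlrc5 is the transactivator of class I genes, acting on a promoter module of X and Y boxes, and IFNG signalling acts on genes through GAS and ISRE sites.

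Upstream sequence was read for the 8 members that the RefSeq promoter table holds (build GRCm38.p6). Nlrc5 and Tap2 have no entry in it. The stretches below cover the 150 bases before the annotated start of 3 of the 4 genes that share the X and Y layout, and of Tap1, a strongly IFNG-responsive transporter subunit without it. They lie at chr17:34000348-34000497 on the minus strand (H2-K1), chr17:37270084-37270233 on the plus strand (H2-M3), chr2:122147537-122147686 on the plus strand (B2m) and chr17:34187406-34187555 on the plus strand (Tap1). Capitals mark the motif matches described next.
H2-K1: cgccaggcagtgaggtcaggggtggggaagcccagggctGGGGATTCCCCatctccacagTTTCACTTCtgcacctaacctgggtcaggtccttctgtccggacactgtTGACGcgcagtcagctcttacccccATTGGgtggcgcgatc
H2-M3: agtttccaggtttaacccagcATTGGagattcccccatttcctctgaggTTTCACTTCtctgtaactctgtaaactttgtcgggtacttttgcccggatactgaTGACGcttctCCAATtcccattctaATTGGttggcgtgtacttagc
B2m: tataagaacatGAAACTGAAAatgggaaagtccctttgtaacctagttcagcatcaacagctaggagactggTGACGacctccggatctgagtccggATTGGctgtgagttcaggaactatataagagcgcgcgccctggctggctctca
Tap1: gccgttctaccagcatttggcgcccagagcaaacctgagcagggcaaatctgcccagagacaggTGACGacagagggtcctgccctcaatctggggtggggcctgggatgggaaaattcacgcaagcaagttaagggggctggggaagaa

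Motifs were searched on both strands of the 250 bases before the start, as letters only. They were TGACG for the core of the X2 box, CCAAT for the Y box, GAAA, any 2 bases and GAAA for an ISRE, GAA, any 2 bases and GAAA for a form with shorter spacing, and TTC, any 3 bases and GAA for a GAS site. Enhancer A, the NF-kB site of class I genes, was searched as GGGGATT with CCCC directly after it. TGACG was followed by ATTGG, which is CCAAT on the other strand, with exactly 20 bases in between in H2-K1, H2-D1, H2-M3 and B2m, a spacing noticed in these genes and then counted. It occurred in 30 of all 32851 promoters (0.0913%), those of the members included. In H2-K1 and H2-D1 the shorter ISRE form ended 40 bases ahead of TGACG, and in H2-M3 it ended 46 bases ahead, against 6.31% of all promoters with this motif anywhere in the window. Enhancer A was found in H2-K1 and H2-D1. Of all promoters, theirs included, 10 held it (0.0304%).

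The longer ISRE was matched in B2m, from 139 to 130 bases before the start, and in H2-T23, from 124 to 115 bases before it, compared with 2.98% of all promoters. A GAS match was present in H2-M3 (7.02% of all promoters). Tap1 held TGACG, which 17.8% of promoters hold, and CCAAT, which 33.8% hold, but with CCAAT far upstream of TGACG. Tapbp held CCAAT only, and Erap1 held none of these motifs in this window. For Tapbp, Erap1, H2-D1 and H2-T23, however, the 150 bases before the RefSeq start used lie wholly inside the GENCODE gene, and for Tapbp that start (33919478) lies well downstream of the gene's first base, so nothing is drawn from a motif missing there. A match is a run of letters and not a measured site, and RNA-seq does not show binding. The reference is C57BL/6, whereas J774A.1 comes from BALB/c mice, which carry another H2 haplotype, so the sequence in these cells may differ.

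**Figure D1:**
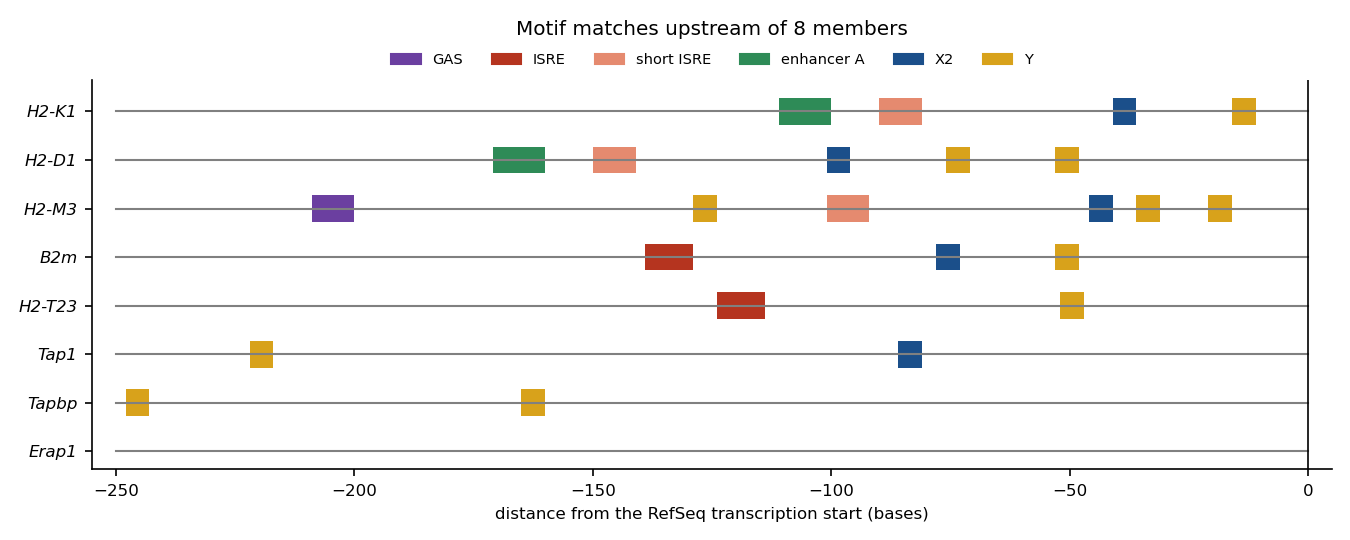
Motif matches in the 250 bases before the RefSeq transcription start (x axis, bases) of the 8 members with a promoter entry; each coloured block is 1 match on either strand, drawn to scale. X2 and Y blocks stand at the same spacing, 25 bases from first letter to first letter, in H2-K1, H2-D1, H2-M3 and B2m.

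Untreated cells already expressed every member. Per kilobase of exon (CPM per kb, mean over the 15 untreated libraries), B2m was highest at 639, followed by H2-D1 at 156, H2-K1 at 65.1 and Tapbp at 48.6. H2-M3 (21.2), Erap1 (17.9), Tap2 (11.1), H2-T23 (8.73) and Tap1 (4.03) were lower, and Nlrc5 was lowest at 0.993. Library ranges did not touch between B2m (525.8 to 848.5) and H2-D1 (135 to 199), or between H2-D1 and H2-K1 (53.3 to 82.7). They did overlap between H2-K1 and Tapbp (34.96 to 63.13) and between H2-M3 (16.0 to 28.2) and Erap1 (14.2 to 20.1). Exon length here covers all annotated exons of a gene, which can exceed 1 transcript. For Erap1 it was 7280 bases against 5644 in a GENCODE transcript, and for H2-M3 both were 1438. Close ranks therefore depend on this choice. After IFNG, B2m stayed highest at 951 CPM per kb and Nlrc5 lowest at 15.6, while Tap1 moved to 41.5, above H2-T23 (22.8), Tap2 (24.5), Erap1 (23.1) and H2-M3 (21.9). Every member had at least 127 fragments in every library.

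Levels of heavy chains carry an added uncertainty. Of all 100-base windows of a GENCODE transcript of each gene, 4.64% in H2-D1 and 3.93% in H2-T23 also occur in transcripts of other genes, H2-Q1 among them, and none do in H2-K1 or H2-M3. Fragments with more than 1 alignment were not counted, and reads from the BALB/c alleles were aligned to the C57BL/6 ones. Both hold for all clones alike. An exon of Tapbp overlaps one of Zbtb22 on the same strand, and fragments there were counted for both genes.

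IFNG raised 9 of the 10 members in every clone (edgeR quasi-likelihood test, adjusted p under 0.05). Among all genes tested, 11.8% rose in WT1, 17.4% in WT2, 18.6% in WT3, 16.2% in KO1 and 13.9% in KO2. For the same 9 members every IFNG library lay above every untreated library of its clone, in all 5 clones, which held for 9.65% of genes. The regulator Nlrc5 and the transporter subunit Tap1 rose most, H2-T23 and Tap2 rose by at least 2.05-fold in every clone, and the classical heavy chains by 1.2-fold to 1.27-fold. H2-M3 passed the threshold in no clone.

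**Figure D2:**
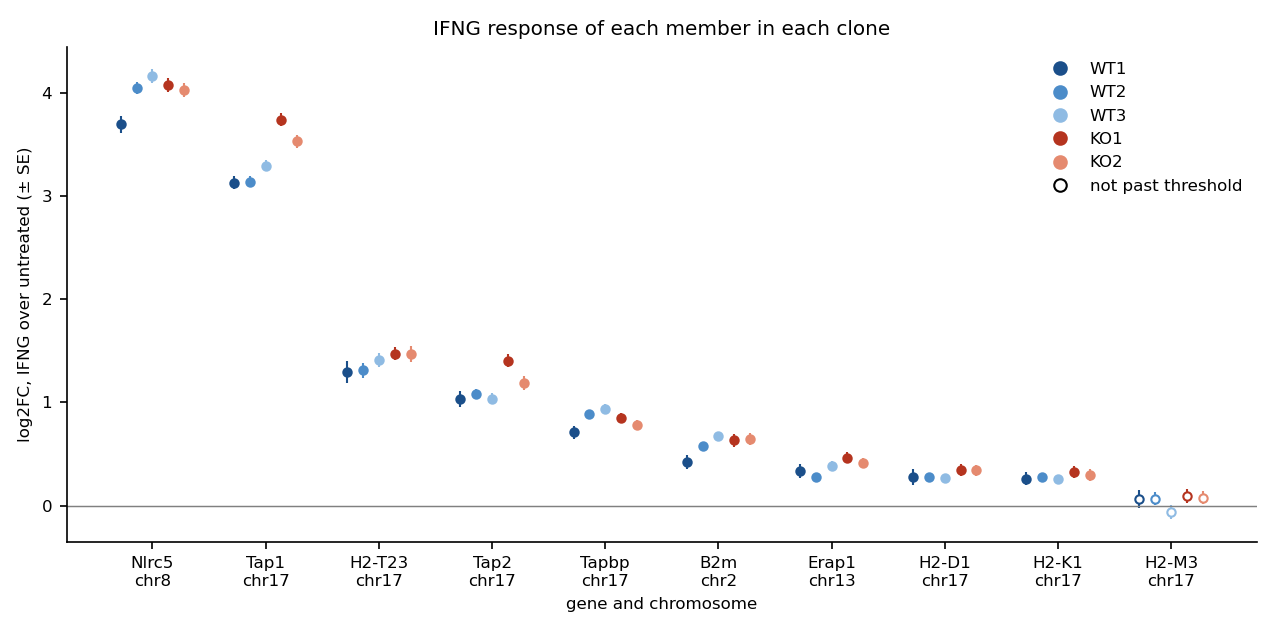
IFNG response (y axis, log2FC of IFNG over untreated, ± SE) of each member in each clone, 3 libraries against 3; filled points passed an adjusted p of 0.05. Nlrc5 and Tap1 sit above 3 in every clone, and the 5 open points of H2-M3 lie between -0.06 and 0.10.

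Nlrc5 had the largest fold change of the set. In untreated WT1 its libraries held 10.5, 11.9 and 11.2 CPM, and after IFNG 149, 134 and 156 CPM. In WT3 they held 7.46, 8.31 and 8.66 CPM untreated and 139, 141 and 151 CPM after IFNG. In KO2 they held 6.70, 6.81 and 6.45 CPM untreated and 115, 107 and 103 CPM after IFNG. Treated and untreated libraries were far apart in each of these clones, with KO2 the lowest in both states. The log2FC was 3.69 ± 0.08 (SE) in WT1, 4.05 ± 0.06 in WT2, 4.16 ± 0.06 in WT3, 4.07 ± 0.06 in KO1 and 4.02 ± 0.07 in KO2, or 12.9-fold to 17.9-fold.

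Tap1 encodes an ATP-binding subunit of the peptide pump. Untreated libraries held 28.6, 30.2 and 29.2 CPM in WT1, 19.9, 21.3 and 18.6 CPM in WT2 and 19.3, 19.7 and 17.3 CPM in WT3. In KO1 they held 19.1, 21 and 20.1 CPM, and in KO2 22.1, 23.8 and 21.3 CPM. WT1 thus stood above all other clones before treatment, and the KO1 range lay among those of WT2 and WT3. After IFNG, libraries held 266, 249 and 259 CPM in WT1, 174, 168 and 182 CPM in WT2, 186, 182 and 181 CPM in WT3, 247, 261 and 280 CPM in KO1 and 277, 254 and 243 CPM in KO2. KO1 and KO2 then overlapped WT1 and lay above every library of WT2 and WT3. The log2FC was 3.13 ± 0.06 in WT1, 3.14 ± 0.05 in WT2, 3.29 ± 0.05 in WT3, 3.74 ± 0.06 in KO1 and 3.53 ± 0.06 in KO2.

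Tap2, the partner of Tap1, rose by a log2FC of 1.03 to 1.40 over the 5 clones, from 35.4 ± 0.54 CPM (SD, n = 3) in WT3 and 53.1 ± 3.30 CPM in WT1 to 72.0 ± 4.78 and 110 ± 12.1 CPM. The nonclassical chain H2-T23 rose by 1.30 to 1.47, and tapasin by 0.71 to 0.94. B2m, the common light chain, rose by 0.42 ± 0.07 in WT1 and 0.67 ± 0.04 in WT3, which is 1.34-fold to 1.59-fold. Its level went from 700 ± 28.3 to 945 ± 62.0 CPM in WT1 and from 461 ± 8.88 to 729 ± 24.5 CPM in WT3. The trimming enzyme Erap1 rose by 0.28 to 0.47.

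H2-D1 rose by 0.27 to 0.35 and H2-K1 by 0.26 to 0.33, so the classical heavy chains, with B2m the most abundant members, were among those that changed least. In WT2, H2-K1 libraries held 153, 147 and 139 CPM untreated and 176, 172 and 179 CPM after IFNG. Those 6 libraries did not overlap between treatments, and the rise was 1.21-fold. In WT1 some of the fits with 1 untreated library left out no longer passed, at similar log2FC. Without the untreated library at 430.0 CPM or the one at 462.5 CPM, the log2FC of H2-D1 was 0.22 or 0.27 (adjusted p = 0.108 or 0.0723; 0.28 with all). Without the untreated library at 194.5 CPM, that of H2-K1 was 0.23 (0.0531; 0.26 with all). H2-M3 went from 24.2 ± 0.71 to 25.1 ± 0.91 CPM in WT2 and from 34.7 ± 2.54 to 36.4 ± 1.83 CPM in KO1, with log2FC between -0.06 and 0.10 and adjusted p of 0.33 to 0.70 over the clones. Its promoter holds GAS, short ISRE, X2 and Y matches all the same.

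With the 9 WT libraries of each treatment pooled, 8 members rose (14.8% of genes did), since H2-K1 reached a log2FC of 0.26 with an adjusted p of 0.0841. For H2-K1 that value was 1.03e-08 with a term for clone and 1.77e-06 without WT1. H2-D1 lost its call without WT2 (adjusted p = 0.128) or WT3 (0.177), and Erap1 without WT3 (0.0594). With counts summed per clone, so that clones were the replicates, 5 members passed. That fit did not pair the untreated and IFNG sums of a clone, so differences in level between clones entered its error. With libraries as replicates and a term for clone, 9 members and 6367 genes passed. In pooled KO, 9 members rose (15.8% of genes), and 7 passed with counts summed per clone, again unpaired. By position, the median log2FC of the 7 chromosome 17 members was 0.83 in WT and 0.82 in KO, and that of the 3 members elsewhere was 0.54 and 0.64. Both sets span low and high responders (0.03 to 3.18 against 0.33 to 3.94 in WT), so their ranges overlapped. The median over all genes tested was -0.0028 in WT and -0.0037 in KO.

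The question of genotype was whether KO clones respond to IFNG as WT clones do. Tap1 was the 1 member whose response differed, by a log2FC of 0.44 ± 0.06 (adjusted p = 5.66e-05 in the interaction test, in which 1.02% of genes passed). It was called with each clone left out in turn, at 0.34 without KO1 to 0.53 without KO2. The p-value of this test takes libraries as replicates, while genotype rests on 3 clones against 2. The interaction was not fitted with counts summed per clone, so no value with clones as replicates is at hand. Clone by clone, the response of KO1 exceeded that of WT1 by 0.57 (adjusted p = 6.02e-05), of WT2 by 0.58 (9.18e-05) and of WT3 by 0.43 (0.00326). The response of KO2 exceeded that of WT1 by 0.39 (0.0137) and of WT2 by 0.40 (0.00962), but its excess over WT3 of 0.25 ± 0.08 did not pass (0.194). Among the 3 WT clones the Tap1 responses differed by at most 0.16 and no pair passed, nor did KO2 against KO1 (-0.18 ± 0.08, 0.73).

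For the other 9 members the interaction log2FC lay between -0.03 and 0.23, the highest being Tap2 (0.23 ± 0.07, adjusted p = 0.11). Tap2 passed without the count filter (0.00351) and without KO2 (0.0319). Over the 5 clones, an F test of equal responses called Tap1 (adjusted p = 1.77e-05) and Nlrc5 (0.0311), against 3.68% of genes. For Nlrc5 the difference that passed was WT3 over WT1, by 0.44 ± 0.10 (0.00682), and it lies within the WT genotype. Without WT1 the adjusted p of the F test was 0.818, and without WT3 0.0676.

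**Figure D3:**
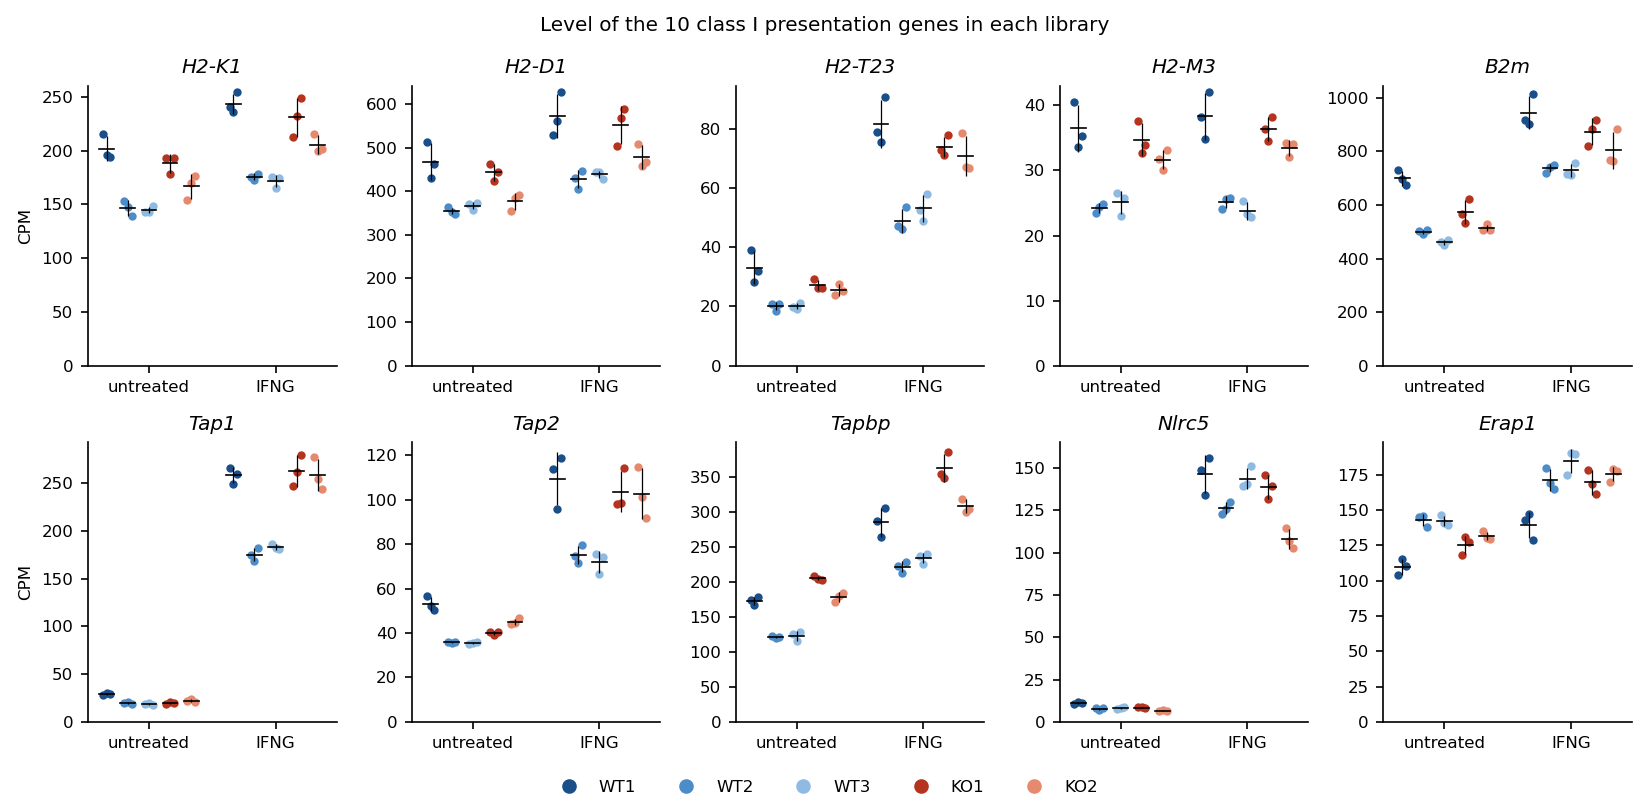
CPM (y axes, linear and from 0) of the 10 members in each of the 30 libraries; points are libraries, short lines the mean and vertical lines the SD of 3 libraries. WT2 and WT3 are the lowest clones for the 4 heavy chains in both treatments, WT1 is the lowest for Erap1, and KO1 is the highest for Tapbp.

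Levels differed between clones for all 10 members, untreated and after IFNG, in an F test over the 5 clones. Most genes at large did so too (73.2% untreated and 69.3% after IFNG), as did the other genes of chromosome 17 (85.4% and 78.3%). For Erap1 after IFNG it rested on WT1 (adjusted p = 0.14 without it). The order was shared by most members, with WT1 at the top and WT2 and WT3 at the bottom. Untreated WT1 libraries lay above those of every other clone for H2-K1, B2m, Tap1, Tap2 and Nlrc5, that is 5 of 10 against 9.26% of genes. None of the 10 did so after IFNG (8.07% of genes).

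Between WT2 and WT3, 0 of 10 members passed in either treatment by edgeR, where 9.3% of genes passed untreated and 6.76% after IFNG. At an unadjusted p of 0.05, 1 member passed in each treatment. The untreated log2FC of WT3 over WT2 lay between -0.12 ± 0.05 (B2m) and 0.07 ± 0.09 (Nlrc5). Against WT1, 9 members were lower and Erap1 was higher in untreated WT2, and the same counts held in untreated WT3 (called in 51.7% and 51.3% of genes in either direction). The median difference over the 7 chromosome 17 members was -0.56 for WT2 and -0.55 for WT3, and the 3 members elsewhere were split, with B2m and Nlrc5 lower and Erap1 higher by 0.37 in each.

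H2-K1 illustrates the order. Untreated libraries held 216, 196 and 195 CPM in WT1, 153, 147 and 139 CPM in WT2 and 143, 143 and 148 CPM in WT3. In KO1 they held 194, 178 and 193 CPM and in KO2 154, 170 and 177 CPM. WT1 lay above the rest, KO1 above KO2 without overlap, and WT2 and WT3 were lowest and overlapped. The nonclassical H2-T23 stood at 33.1 ± 5.60 CPM in WT1, 20.04 ± 1.36 in WT2, 20.13 ± 1.103 in WT3, 27.2 ± 1.70 in KO1 and 25.6 ± 1.90 in KO2. Erap1 ran the other way, at 110 ± 5.75 CPM in WT1 and 143 ± 4.36 in WT2, with KO1 (125 ± 6.53) and KO2 (132 ± 2.98) in the middle.

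After IFNG, every library of WT1, KO1 and KO2 lay above every library of WT2 and WT3 for all 7 chromosome 17 members and for B2m. This grouping of clones was seen in the data and is a description. It coincides with the running numbers in the column names, where WT1, KO1 and KO2 come before WT2 and WT3. Clone and that order cannot be told apart. The same separation of libraries was true of 8.43% of all genes and of 29.2% of the other 734 genes of chromosome 17 tested. Before treatment it held for 5 of the 7, for B2m, for 8.19% of all genes and for 34.9% of the other chromosome 17 genes. Tap1 and H2-D1 were the 2 chromosome 17 members that did not show it untreated. The summed level of 3 dendritic cell markers, nearly all of it Zbtb46, fell into the same grouping. It was 4.43 to 5.46 CPM in untreated WT1, KO1 and KO2 and 1.88 to 2.89 CPM in WT2 and WT3, and after IFNG 2.74 to 5.05 and 1.35 to 2.01 CPM. Flt3 was at most 0.123 CPM and Siglech was at 0 in every library. Summed macrophage markers did not follow the grouping, being lowest in untreated WT1 (4957 to 5146 CPM) and highest in untreated KO1 (7253 to 7697 CPM). Their part in the result was not tested.

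Chromosome 17 as a whole also differed between the clones. Its medians were higher in WT1, KO1 and KO2 than in WT2 and WT3, and in WT1 minus KO1 and WT1 minus KO2 they were -0.04 and -0.05 untreated. Relative to the other WT clones, the median log2 difference of 616 other chromosome 17 genes was 0.24 in untreated WT1, -0.13 in WT2 and -0.11 in WT3, and relative to the 3 WT clones it was 0.19 in KO1 and 0.20 in KO2. By library, the untreated medians of WT1, KO1 and KO2 were at least 0.18 and those of WT2 and WT3 at most -0.10. After IFNG the 5 medians were 0.24, -0.12, -0.13, 0.19 and 0.18. Among the 19 other chromosomes with at least 100 such genes, the WT clones had medians from -0.07 to 0.04 untreated. KO clones reached -0.36 on chromosome 12 (KO1) and -0.27 on chromosome 6 (KO2). Medians for chromosomes 2, 8 and 13, where B2m, Nlrc5 and Erap1 lie, lay between -0.04 and 0.08 in all clones.

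**Figure D4:**
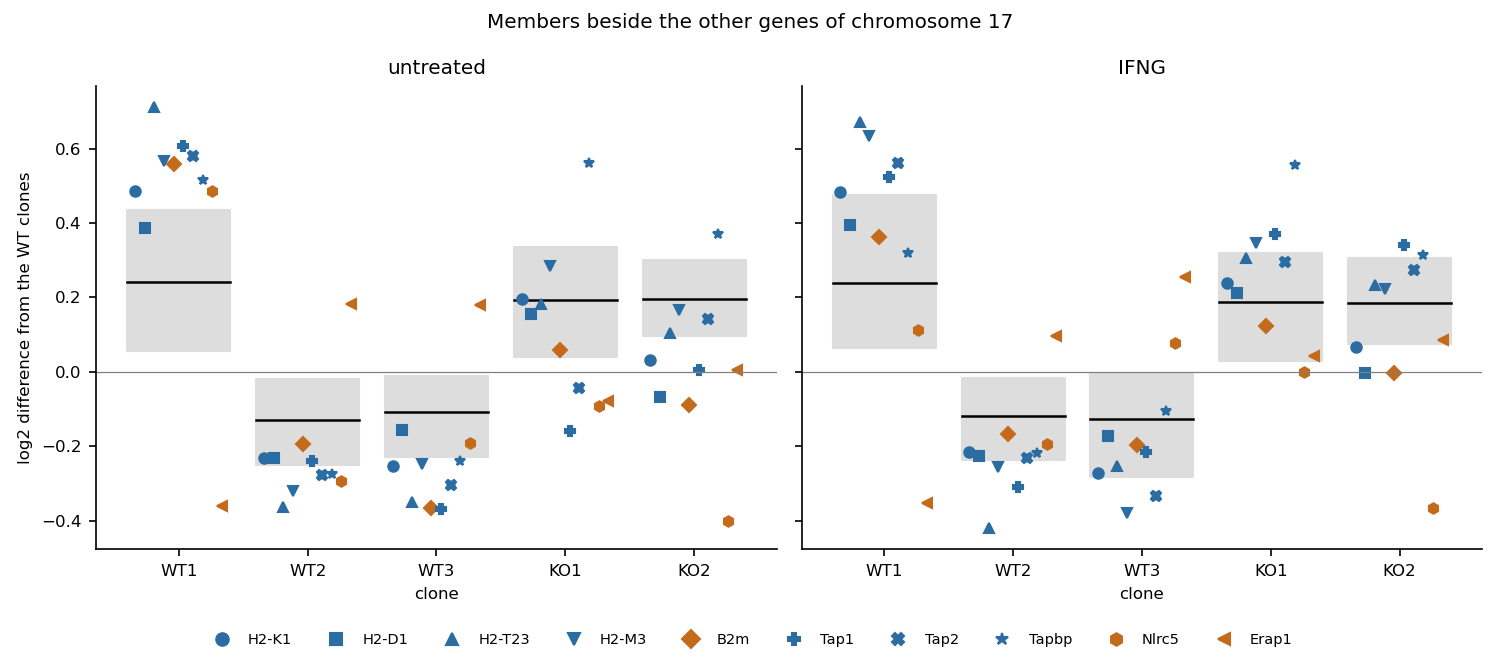
Log2 difference (y axis) of each member from the mean of the WT clones (of the other WT clones, for a WT clone) in 5 clones, untreated and after IFNG. Grey boxes span the quartiles and black lines mark the median of the other chromosome 17 genes; blue symbols are chromosome 17 members and orange symbols members elsewhere. Grey medians are above 0 in WT1, KO1 and KO2 and below 0 in WT2 and WT3, and in WT1 all 7 blue symbols are above the line.

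Set beside its chromosome, each of the 7 members in WT1 lay above the chromosome median, untreated by 0.15 (H2-D1) to 0.47 (H2-T23). In WT2 and WT3 all 7 lay below it untreated, and after IFNG all but Tapbp in WT3 did. WT1 is part of the reference for both, so these positions largely mirror that of WT1 and are no separate result. In untreated WT2 minus KO1, 2 of the 7 members lay above the chromosome median. In WT2 minus KO2, WT3 minus KO1 and WT3 minus KO2, 3 did. After IFNG it was 0 against KO1 and 2 against KO2, for WT2 and WT3 alike. Untreated KO1 was mixed: Tapbp lay 0.37 above the chromosome median and above 94.97% of other chromosome 17 genes, H2-K1 (0.00) and H2-T23 (-0.01) lay on it, and Tap1 lay 0.35 below. After IFNG, Tap1 was 0.18 above it in KO1 and 0.155 above it in KO2. The 102 genes between the outermost members, from Tapbp to H2-M3, had untreated medians of 0.38 in WT1, -0.22 in WT2, -0.17 in WT3, 0.14 in KO1 and 0.16 in KO2. Genes farther than 5 Mb from the members had 0.21, -0.11, -0.10, 0.22 and 0.21. The WT1 median was thus higher around the members than on the rest of the chromosome. The KO medians were lower there, but relative to a mean that includes WT1. Taken directly, untreated WT2 minus KO1 was -0.31 between the outermost members and -0.29 over all other chromosome 17 genes. For WT2 minus KO2 the medians were -0.31 and -0.29, for WT3 minus KO1 -0.26 and -0.27, and for WT3 minus KO2 -0.28 and -0.27. These are comparisons of medians with no test. What part of the members' differences goes with their chromosome was not tested.

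B2m and Nlrc5 lie on chromosomes without such a difference. Both were higher in untreated WT1 than in the other WT clones, and the cause was not tested. B2m lay 0.56 above the other WT clones in untreated WT1 and Nlrc5 0.48, while the medians of chromosomes 2 and 8 were 0.00 and -0.01. Untreated Erap1 lay 0.36 below the other WT clones in WT1. After IFNG the WT1 differences were 0.36 for B2m, 0.11 for Nlrc5 and -0.35 for Erap1. The Nlrc5 libraries of WT1 then overlapped those of WT3 and KO1.

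Pooled KO against pooled WT called few members. Untreated, 1 of 10 was higher in KO, Tapbp, and none was lower, where 26.6% of genes passed. After IFNG, 2 of 10 were higher, Tapbp and Tap1, and none was lower (23.9% of genes). Tapbp encodes tapasin, which bridges the empty class I molecule to the transporter. Untreated libraries held 174, 167 and 178 CPM in WT1, 123, 119 and 122 CPM in WT2 and 126, 115 and 128 CPM in WT3. In KO1 they held 208, 204 and 203 CPM and in KO2 171, 180 and 184 CPM. KO1 lay above all WT libraries, and KO2 overlapped WT1. The log2FC of pooled KO over WT was 0.46 ± 0.10 (adjusted p = 0.0044) untreated and 0.44 ± 0.08 (7.72e-04) after IFNG. It rested on KO1, being 0.36 (0.127) and 0.31 (0.0563) without it. In KO1 alone, Tapbp was the 1 member called, untreated (0.55 ± 0.14, adjusted p = 0.0108; 25.7% of genes) and after IFNG (0.56 ± 0.09, 0.00107; 20.9%). With counts summed per clone, 0 of 10 members and 1 gene in all passed in each treatment, and the adjusted p of Tapbp was 0.42 and 0.349.

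Tap1 was higher in KO after IFNG by 0.35 ± 0.10 (adjusted p = 0.0221), and lost the call without any 1 of WT2, WT3, KO1 and KO2 (adjusted p = 0.0857 to 0.183) and with scaling to chromosome 17 genes (0.16, 0.0711). Untreated, its difference was -0.10 ± 0.13 (0.59). In KO2 taken alone, 0 of 10 members passed untreated by edgeR (11.6% of genes did), with 2 under an unadjusted p of 0.05 and 1 called by DESeq2. After IFNG, Nlrc5 was lower in KO2 than in WT by a log2FC of -0.36 ± 0.08 (adjusted p = 0.0087, where 10.0% of genes passed in either direction), but not in KO1 (0.01 ± 0.07). KO2 also lay below KO1 for Nlrc5 after IFNG, by -0.37 ± 0.06 (1.37e-04). The first of these calls was lost without the KO2 library at 106.9 CPM (0.0576) or the one at 102.9 CPM (0.0596).

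The choice of WT clones decided what genotype showed. Without WT1, 7 members were higher and 1, Erap1, was lower in untreated KO (47.8% of genes passed), and after IFNG 8 were higher (44.8%). The 7 chromosome 17 members then had a median log2FC of 0.29 untreated and 0.50 after IFNG. Scaling to the other chromosome 17 genes in place of all genes gave the 7 a median of -0.09 untreated and 0.08 after IFNG, with Tapbp higher in both (0.26, adjusted p = 0.00743, and 0.25, 0.00551). Under that scaling, in which 47.0% and 40.6% of genes passed, H2-D1, B2m, Tap1 and Nlrc5 were lower in untreated KO and Nlrc5 was lower after IFNG. As chromosome 17 was higher in both KO clones, the scaling itself lowers KO values, also of genes on other chromosomes. Untreated, B2m went from -0.03 to -0.23 and Nlrc5 from -0.27 to -0.47. These calls are thus relative to chromosome 17 only. Taken as WT2 minus KO1 and WT2 minus KO2, the median of the other chromosome 17 genes was -0.29 in both pairs untreated, and the medians of the 7 members were -0.36 and -0.33. After IFNG the chromosome medians were -0.27 and -0.285 and those of the members -0.52 and -0.43. Against WT1 the chromosome and the members had opposite signs: untreated WT1 minus KO1 and WT1 minus KO2 gave -0.04 and -0.05 for the chromosome but 0.12 and 0.29 for the members, and after IFNG -0.03 and -0.03 against 0.06 and 0.19.

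Other genes of the pathway were taken as lists, whose counts stand against 14.8% of all genes that rose in pooled WT and 15.8% in pooled KO. Of 28 other class I heavy chain genes of chromosome 17, 14 could be tested in pooled WT, where 4 rose and none fell, and 15 in pooled KO, where 8 rose and none fell. H2-T24, a nonclassical chain, rose from a mean of 3.47 to 22.8 CPM (log2FC 2.74 ± 0.19, adjusted p = 5.06e-10), H2-Q4 by 0.56 ± 0.12 and H2-T-ps, a pseudogene, by 0.54 ± 0.17. Fragments that aligned to more than 1 of these close copies were not counted, and others may be placed on the wrong copy. Of 8 chaperones, 1 rose and none fell in WT: Tapbpl, the tapasin-related editor of bound peptides, from 13.5 to 40.5 CPM (1.59 ± 0.06, 8.41e-15). Of 7 other genes of peptide trimming, Lap3 (leucine aminopeptidase, 0.57 ± 0.04) and Tpp2 (tripeptidyl peptidase, 0.40 ± 0.09) rose and none fell. Of 4 class I-like genes elsewhere that were tested, Mr1, which presents vitamin B metabolites, rose by 0.355 ± 0.11 (0.0225). Median log2FC was 0.33 for the heavy chains, 0.01 for the chaperones, 0.03 for the trimming genes and 0.08 for the class I-like genes, against -0.0028 for all genes.

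Of 10 regulators, 5 rose and 1 fell in pooled WT. Irf1, an early IFNG target that binds ISRE sites, rose most (5.10 ± 0.07, from 23.5 to 805 CPM) and Irf2 rose by 0.73 ± 0.04. In pooled KO, 5 of the 10 rose and 2 fell. Members were also compared with 11570 other genes by the shape of their profile over the 10 clone and treatment means, as the root mean square difference of centred log2 CPM. H2-K1 and H2-D1 had each other as nearest neighbour (0.053), ahead of every gene outside the set. For every other member some outside genes were nearer than its nearest member, from 2 genes for Tap2 to 394 for H2-M3 and 6109 for Erap1. The nearest gene outside the set was Pkm for H2-M3 (0.038), Ripk2 for B2m (0.064), Nuak2 for H2-T23 (0.12), Helz2 for Tap2 (0.12), Arid5a for Nlrc5 (0.22) and Ube2d3 for Erap1 (0.051). For Tapbp it was Pik3r5 (0.10), for Tap1 Gm4070 (0.18), for H2-D1 Gm11127 (0.057) and for H2-K1 Gm49339 (0.070).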

How the data were processed

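RNA-seq was done on 3 WT and 2 KO clones of J774A.1, untreated or with IFNG. The deposited tables hold fragment counts per gene, not normalized. The authors trimmed adapters with BBDuk, used HISAT2 2.1.0 to align to mm10, and assigned uniquely aligned fragments to genes with featureCounts 1.6.2 on the reverse strand. The headers of the deposited tables name Gencode vM18 and the option -O, by which a fragment on 2 genes adds to both; the paper's methods name RefSeq and list options without -O. The columns are named wt1, wtc1 and wtc3 for the WT clones: wtc1 was taken as WT2 and wtc3 as WT3, since the tables titled WT2 and WT3 hold only those columns. The table of all 30 libraries was used, as the 138 columns of the other 13 tables held identical counts.

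Counts were analysed with edgeR 4.0.16 in R 4.3.3 (filterByExpr, TMM, quasi-likelihood F test, Benjamini-Hochberg adjustment over all genes tested, threshold 0.05), with an SE equal to |log2FC| over the root of F. CPM used TMM factors from 14870 genes. Chromosome medians used a pseudocount of 0.5 on the log2 scale and genes of at least 1 CPM, with the all-gene median subtracted. Depth (15566122 to 37992642 fragments) gave at least 127 fragments per member and library. The script was tested on simulated data. DESeq2 1.42.0 and other settings were alternatives. Comparisons of KO with WT share their WT libraries. Libraries were made from 200 or 500 ng RNA with 1 of 2 adapter types, not assigned to libraries in the labels, so no batch could be examined. The column names carry running numbers that go clone by clone, with WT1, KO1 and KO2 before WT2 and WT3. What these numbers stand for is not stated. The members, lists, markers and named genes (all 10 members, and in each list the 3 with the largest change past the threshold in pooled WT) were chosen with earlier results of these data known; 1 gene that this rule names is not reported here. Promoters are from RefSeq (GRCm38.p6) and transcripts from GENCODE vM21. Figures were drawn with matplotlib 3.10.9.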

Additional observations from a re-analysis of the deposited data

Results flagged for a closer look

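The Tap1 response to IFNG was larger in KO than in WT by a log2FC of 0.44 in the test of the interaction, and its responses over the 5 clones differed with an adjusted p of 1.77e-05 (edgeR). Both KO clones had higher responses (3.74 and 3.53) than each of the WT clones (3.13, 3.14 and 3.29). The Nlrc5 responses differed over the 5 clones with an adjusted p of 0.0311, the lowest being WT1 (3.69) and the highest WT3 (4.16). No library stood apart from the rest of its genotype and treatment in any of the 40 groups of member levels examined by Dixon's test. Each group pooled clones, and member levels differed between clones, so the test could miss a library that stood apart from its own clone. Whether the libraries of a clone are alike cannot be read from it.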

How the results depend on the processing

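No paired analysis was possible because the column names of the tables carry no replicate number. For the IFNG responses of single members and the other differences in which a member was called, 1013 alternative values were computed: 984 kept direction and side of the threshold, 26 no longer passed, 2 newly passed and 1 changed sign (H2-M3 in pooled WT, -0.0061 without WT1, 0.063 without WT3). Apart from these, of 63 KO or interaction differences of members that were not called, 36 changed sign and 46 were called under some alternative, so their directions are not given weight. With clone as a term, 6367 genes and 9 members were called in pooled WT, against 3840 and 8. With counts summed per clone and no term for clone, 1231 genes and 5 members (8 without summing) were called in pooled WT. In pooled KO, 1247 genes (4246) and 7 members (9) were called, with H2-K1 and H2-D1 no longer passing. For KO against WT, summing left 1 gene and 0 members in either treatment (3689 and 3258 genes without it). The median response of members elsewhere in pooled KO was 0.61 with summing. With TMM on chromosome 17 genes, KO against WT called 6531 genes and 5 members untreated and 5537 genes after IFNG; KO1 and KO2 each called 3 members untreated, and KO2 called 3196 genes untreated and 2155 after IFNG (1674 and 1411). DESeq2 called 1 member untreated and 2 after IFNG in KO2. Without the count filter the interaction called 2 members and 384 genes (150), and the responses over clones 919 genes (547). The causes of these changes were not tested.

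Leaving out 1 clone or library gave 0 to 8 members and 1674 to 6472 genes for KO against WT untreated, and 1 to 8 members and 1411 to 5992 genes after IFNG, the highest without WT1. KO1 gave 1 to 8 members and 2339 to 7053 genes untreated, 1 to 8 and 1691 to 6291 after IFNG. KO2 gave 0 to 9 and 825 to 5625 untreated, 0 to 8 and 533 to 4994 after IFNG. The interaction gave 1 to 2 members and 21 to 570 genes, the responses over clones 1 to 2 and 319 to 516, and the median response of members elsewhere in pooled KO 0.63 to 0.64. The chromosome 17 medians kept their sign under each alternative. At 10 CPM they were 0.26 in WT1 (both treatments) and -0.14 in WT3 after IFNG. With a pseudocount of 0.1, KO2 was 0.2006 untreated. With a pseudocount of 2, untreated WT1, WT3, KO1 and KO2 were 0.2129, -0.0975, 0.1722 and 0.181, and WT1 and KO1 after IFNG 0.2168 and 0.1702. Without subtracting the all-gene median, untreated WT1, WT3 and KO2 were 0.2261, -0.1008 and 0.202. In genes without an IFNG response WT1 was 0.2933 untreated and 0.2957 after IFNG, and WT3 -0.1483 and -0.1559. Depth did not limit the members, the lowest of which had 127 fragments.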

Other observations

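Irf1, a regulator listed with the pathway, rose with IFNG in both genotypes (log2FC 5.10 ± 0.07 in WT and 5.13 ± 0.11 in KO), with an interaction of 0.04 ± 0.06 that did not pass (edgeR, adjusted p = 0.94). For H2-T24, which responded by 2.74 in WT and 2.98 in KO, the interaction was 0.25 ± 0.12 (0.536).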
